A study of Mus musculus with 112 samples.

Results

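The regions described are 11218 chromatin sites of mouse embryonic stem cells (ESCs) that carried a peak of RNA polymerase II (Pol II) phosphorylated at serine 5 (Ser5P) before depletion of SNRNP70 and again after it. They are the peaks of the 0 h Ser5P list that share at least 1 bp with any peak of the 4 h Ser5P list, on mouse build mm9, and are called kept peaks. They make up 75.8% of the 14809 peaks listed for Ser5P at 0 h, and 44030 peaks stood in the 4 lists of the series. The overlap itself chose the kept peaks, so their number and the overlap are descriptions and carry no test.

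The ChIP-seq samples came from the 46C ESC line (strain 129/Ola) in which SNRNP70 carries an auxin-inducible degron, a tag through which added auxin brings about breakdown of the protein. Cells were taken without treatment (0 h) or after 4 h in 500 µM indole-3-acetic acid (IAA, an auxin), and both carried the degron. Chromatin fixed with formaldehyde and sheared to 200 to 500 bp was precipitated with 2 µg of antibody to Pol II Ser5P or to Pol II phosphorylated at serine 2 (Ser2P), 1 library for each antibody and time. The lists include no IAA treatment of cells without the degron, so loss of SNRNP70 and IAA itself cannot be told apart, the lists do not measure SNRNP70, and the labels do not say how many clones the line represents.

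Pol II carries a long tail of repeated residues on its largest subunit. The tail is phosphorylated at serine 5 as transcription starts, and Ser5P is usually densest near promoters, whereas serine 2 phosphorylation builds up as Pol II elongates and is usually densest within gene bodies and towards their ends. SNRNP70 is a protein of the U1 small nuclear ribonucleoprotein, which recognises 5′ splice sites and is also known to restrain early cleavage and polyadenylation of nascent transcripts. Among many RNA samples of the series, the ChIP-seq samples were made, per its design text, to follow where Pol II with either mark sits after acute loss of SNRNP70.

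As a check of the cell type, 6 of 6 ESC long noncoding RNAs were measured in whole untreated cells of the line, from 1.67 ± 0.31 FPKM for Platr6 to 116 ± 6.1 FPKM for Lncenc1 (SD, n = 3). Of 5 long noncoding RNAs of other cell types, also all measured, Hotairm1 stood at 0.197 ± 0.093 FPKM and Mir124a-1hg at 11.3 ± 1.0 FPKM (SD, n = 3). The ranges of the lists overlap, since Mir124a-1hg was above 4 of the 6 ESC RNAs and Bvht, at 5.51 ± 0.95 FPKM, above 3 of them, so the lists do not separate the cell types and only the high Lncenc1 stands out. The Ser5P lists held 14809 peaks at 0 h and 16216 at 4 h, and the Ser2P lists 5915 and 7090. Each peak has a score given by the authors, which starts at about 50 in all 4 lists and piles up at 3100. No label or file used here states what it measures or how deeply the libraries were read, so scores and widths of separate lists are not on a known common scale. With 1 library per list no spread between replicates exists, and no difference below was tested. Intervals are exact 95% binomial ones that cover counting error only, and neighbouring peaks are not independent.

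At 0 h the kept peaks were broader and higher-scoring on the median than those not kept. Their median width was 1344 bp, with quartiles of 1023 and 1940 bp, against 910 bp for the 3591 peaks that were not kept. The median score was 141 for kept peaks and 65.2 for the others. Because of this, kept peaks held 84.8% of the length of the 0 h list (21.1 Mb of 24.9 Mb), more than their 75.8% share of the peaks. Of that kept length, 88.5% lay under a 4 h peak. A kept peak had a median of 96.3% of its bases under 4 h peaks, 4432 were covered in full, and 541 had less than 50% of their length covered.

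The share kept climbed with the 0 h score at every step when the 0 h list was divided into 10 groups of equal size. Of the lowest-scoring group, with scores from 50 to 55.02, 44.3% were kept. In the seventh group the share was 91.2%, and in the highest 1479 of 1481 peaks were kept. Width showed the same order. Of peaks narrower than 1000 bp 54.8% were kept (interval 53.4 to 56.2%, n = 4750), of those from 1000 to 1500 bp 79.2%, and of those from 5000 to 10000 bp 415 of 421. All 124 peaks of 10000 bp or wider were kept, where a wider peak also has more room for an overlap of 1 bp. Width and score are tied to each other in this list (Spearman's rho 0.80 over the 11218 kept peaks, which share 1 library), so these are 2 views of one ordering.

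**Figure D1:**
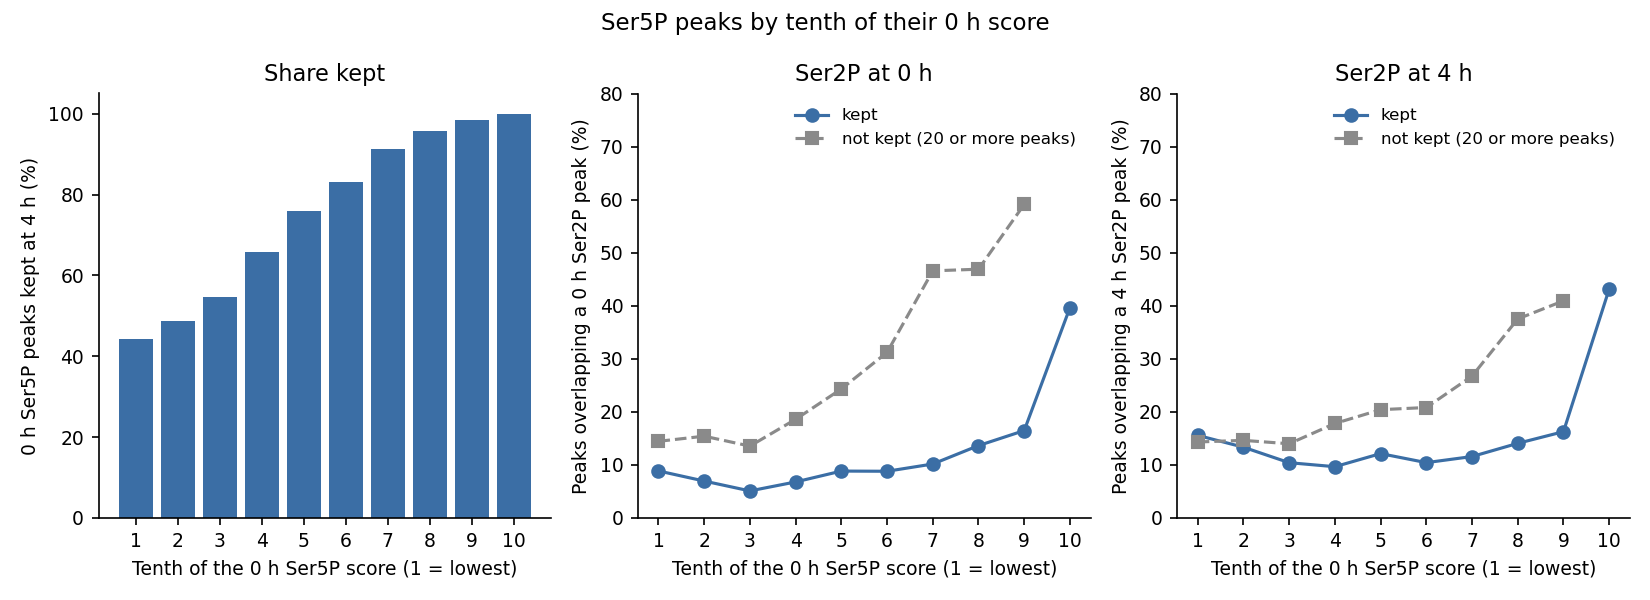
Left, percent of 0 h Ser5P peaks kept at 4 h in each of the 10 groups of 0 h score (1481 or 1480 peaks per group), rising from 44.3% to 99.9%. Middle and right, percent of kept (circles) and not kept (squares) peaks that overlap a Ser2P peak at 0 h and at 4 h, where a point stands for at least 20 peaks. The kept points lie below the others at 0 h in every group shown, and at 4 h in all but the lowest.

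Few peaks lay close to the line that the rule draws. The overlap was under 50 bp for 26 kept peaks, which had a median score of 61.8 and a median width of 842.5 bp. On the other side, 34 peaks that were not kept lay within 50 bp of a 4 h peak, with a median score of 59.5 and a width of 881.5 bp. Both sets were weak and narrow by the measure of the whole list. Most peaks that were not kept were far from the line, at a median of 7436.5 bp from the nearest 4 h peak, and 566 of them lay within 1000 bp of one.

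Most kept sites were listed as wider at 4 h. The 4 h width of a site is taken as the span of all 4 h peaks over it. The median went from 1344 bp to 1704 bp, and the upper quartile from 1940 bp to 2797 bp. The median ratio of 4 h to 0 h width was 1.19, with quartiles of 0.97 and 1.56. Of the 11218 sites, 8019 were wider at 4 h (71.5%, interval 70.6 to 72.3%), 3190 were narrower and 9 had the same width. A ratio of at least 1.5 was reached by 3093 sites, 27.6% of them, and narrowing by as much by 467, or 4.16%.

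Some neighbouring peaks shared 1 peak at 4 h. Of the kept peaks, 9128 (81.4%) were matched one to one, 1 peak at 0 h with 1 peak at 4 h. For these the median width was 1304.5 bp at 0 h and 1507 bp at 4 h, a median ratio of 1.12, and 66.9% were wider at 4 h. They made up 1634 of the 3093 sites wider by at least 1.5-fold, which is 17.9% of one-to-one sites. Another 1815 kept peaks (16.2%) shared a 4 h peak with at least 1 other, so that 856 peaks of the 4 h list each took in 2 or more. Pairs made up 735 of the 856, 96 took in 3 peaks, 20 took in 4, 3 took in 5, and 2 took in 6. In the other direction, 540 kept peaks (4.81%) met 2 or more 4 h peaks, at most 6, and 265 did both. Of the 1815 joined peaks, 1405 (77.4%) lay under a span at least 1.5 times their own width, which counts the whole shared peak for each.

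When all peaks linked by overlap across the times were counted as 1 region, the sites formed 10209 regions. Their summed length was 1.11 times as great at 4 h, and the median ratio over regions was 1.12. The 579 regions with several peaks at 0 h and 1 at 4 h had a median summed length of 3419 bp at 0 h and 4094 bp at 4 h, a median ratio of 1.11. The regions matched one to one had 1.12. The 227 regions with several peaks at both times had a median ratio of 1.05, and the 275 regions with 1 peak at 0 h and several at 4 h one of 1.03.

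**Figure D2:**
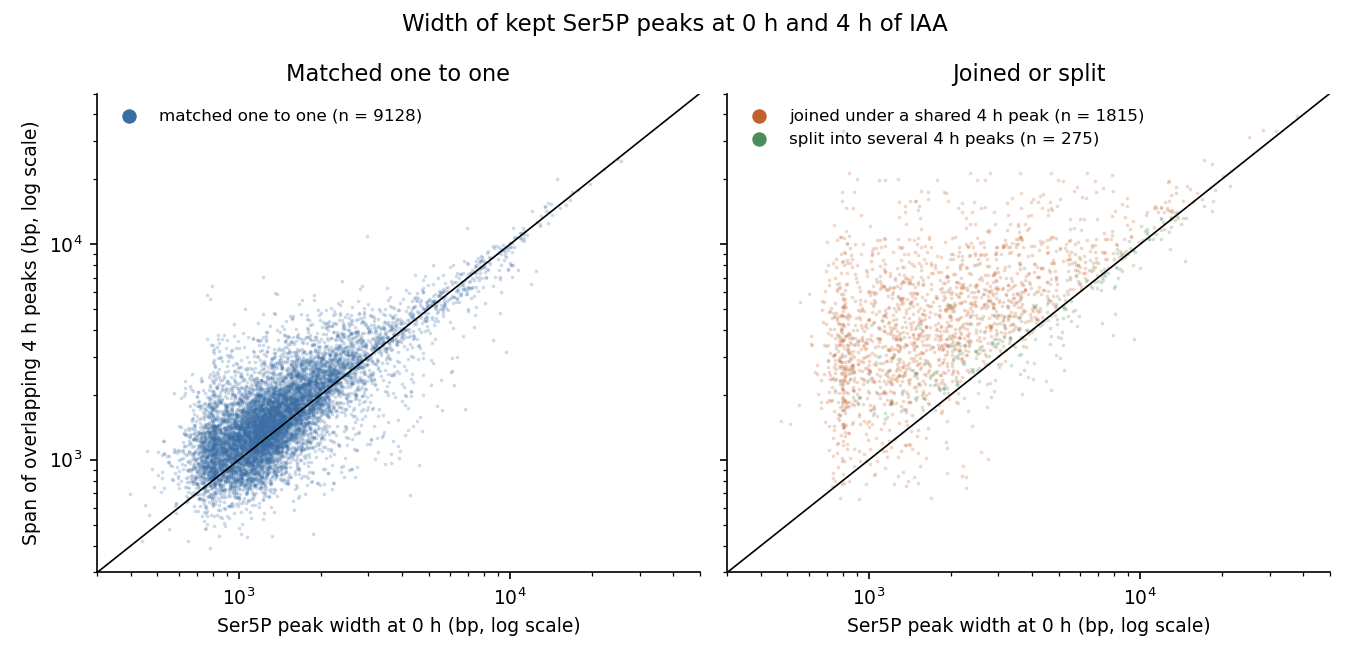
Width of each kept Ser5P peak at 0 h (x axis, bp, log scale) against the span of the 4 h peaks over it (y axis, bp, log scale), with the line of equal width. The one-to-one sites (n = 9128, left) scatter around the line with a median ratio of 1.12, while the sites joined under a shared 4 h peak (n = 1815, right) lie mostly far above it and the 275 that were only split lie near it.

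The gaps that were closed were short. Joined neighbours had been a median of 226 bp apart at 0 h, with quartiles of 78 and 562 bp, over 1009 gaps, and the longest was 6483 bp. Among neighbouring kept peaks less than 500 bp apart, 719 of 897 pairs (80.2%) lay under a shared 4 h peak. The share was 51.5% of 340 pairs at 500 to 1000 bp, 23.6% of 381 pairs at 1000 to 2000 bp, and 3.80% of 631 pairs at 2000 to 5000 bp. Shared 4 h peaks were therefore mostly those of peaks that already stood side by side at 0 h.

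Widening of the one-to-one sites was small at each end and had no side along the chromosome. The edge at the lower coordinate lay a median of 76 bp further out at 4 h (quartiles −96 and 274 bp), and the edge at the higher coordinate 84 bp further out (quartiles −86 and 286 bp). Both edges lay further out in 3535 sites (38.7%) and both further in at 1244 (13.6%). In 4320 sites (47.3%) one edge lay further out and the other further in, and of these 2558 were wider at 4 h, 1753 narrower and 9 of the same width. The centre of a site was displaced by a median of 141 bp, and by 3.5 bp when the sign along the chromosome was kept. The strand of transcription was not used here, so upstream and downstream edges were not separated.

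How the width ratio depended on width turned on which width was used to sort the sites. Sorted by 0 h width, one-to-one sites narrower than 1000 bp had a median ratio of 1.33, and those of 5000 to 10000 bp one of 0.966. Sorted by 4 h width, the narrowest class had 0.874 and the class of 2500 to 5000 bp 1.34. Sorted by the geometric mean of both widths, which favours neither time, the medians were 1.07 under 1000 bp, 1.12 at 1000 to 1500 bp, 1.18 at 1500 to 2500 bp and 1.12 at 2500 to 5000 bp. The 242 sites of 5000 to 10000 bp had a median of 0.990 and the 43 wider ones 1.01. By that sorting, sites of up to 5000 bp were listed as slightly wider at 4 h in every class, and the widest sites kept nearly the same width.

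Scores of kept sites were also higher in the 4 h list more often than lower. Taking the highest score among the 4 h peaks over a site, the median was 141 at 0 h and 197 at 4 h, and 7442 sites (66.3%) had the higher number at 4 h, 3594 the lower and 182 the same. For one-to-one sites the medians were 138 and 166. For sites only joined they were 131 and 605, where the 4 h score belongs to the larger peak. At 3100 or above stood 204 sites at 0 h, 322 at 4 h and 189 at both. The 322 counts a shared 4 h peak once for each site under it, and the whole 4 h list held 275 such peaks. The order of sites was partly held, with a Spearman's rho of 0.66 over 11218 sites and 0.75 over the 9128 one-to-one sites. The whole 4 h list also had the higher median score (117 against 109), and the part of read depth in these numbers was not tested.

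The largest merges show what the numbers above look like at single sites. On chromosome 1, 6 Ser5P peaks of 0 h, 841 to 6392 bp wide and with scores of 54.38 to 1550.35, were met by the single 4 h peak chr1:134902381-134923671, which was 21291 bp wide with a score of 3100. The first of the 6 started further out than the 4 h peak, and the 6 summed to 20697 bp, and 18790 bp of them lay within the bounds of the 4 h peak. On chromosome 15, 6 peaks that summed to 14186 bp, with scores of 80.14 to 433.03, were met by chr15:85688774-85708565, a 4 h peak of 19792 bp whose score was only 237.28. Within the bounds of that peak Ser2P covered 1487 bp at 0 h, in 1 peak, and 7145 bp at 4 h, in 4 peaks. On chromosome 11, 5 peaks summing to 12782 bp were met by chr11:77498788-77511233, of 12446 bp, and within its bounds Ser2P covered 1285 bp at 0 h and 7409 bp at 4 h. One Ser2P peak of 4 h there, 11080 bp wide, lay mostly beyond the end of the Ser5P peak.

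**Figure D3:**
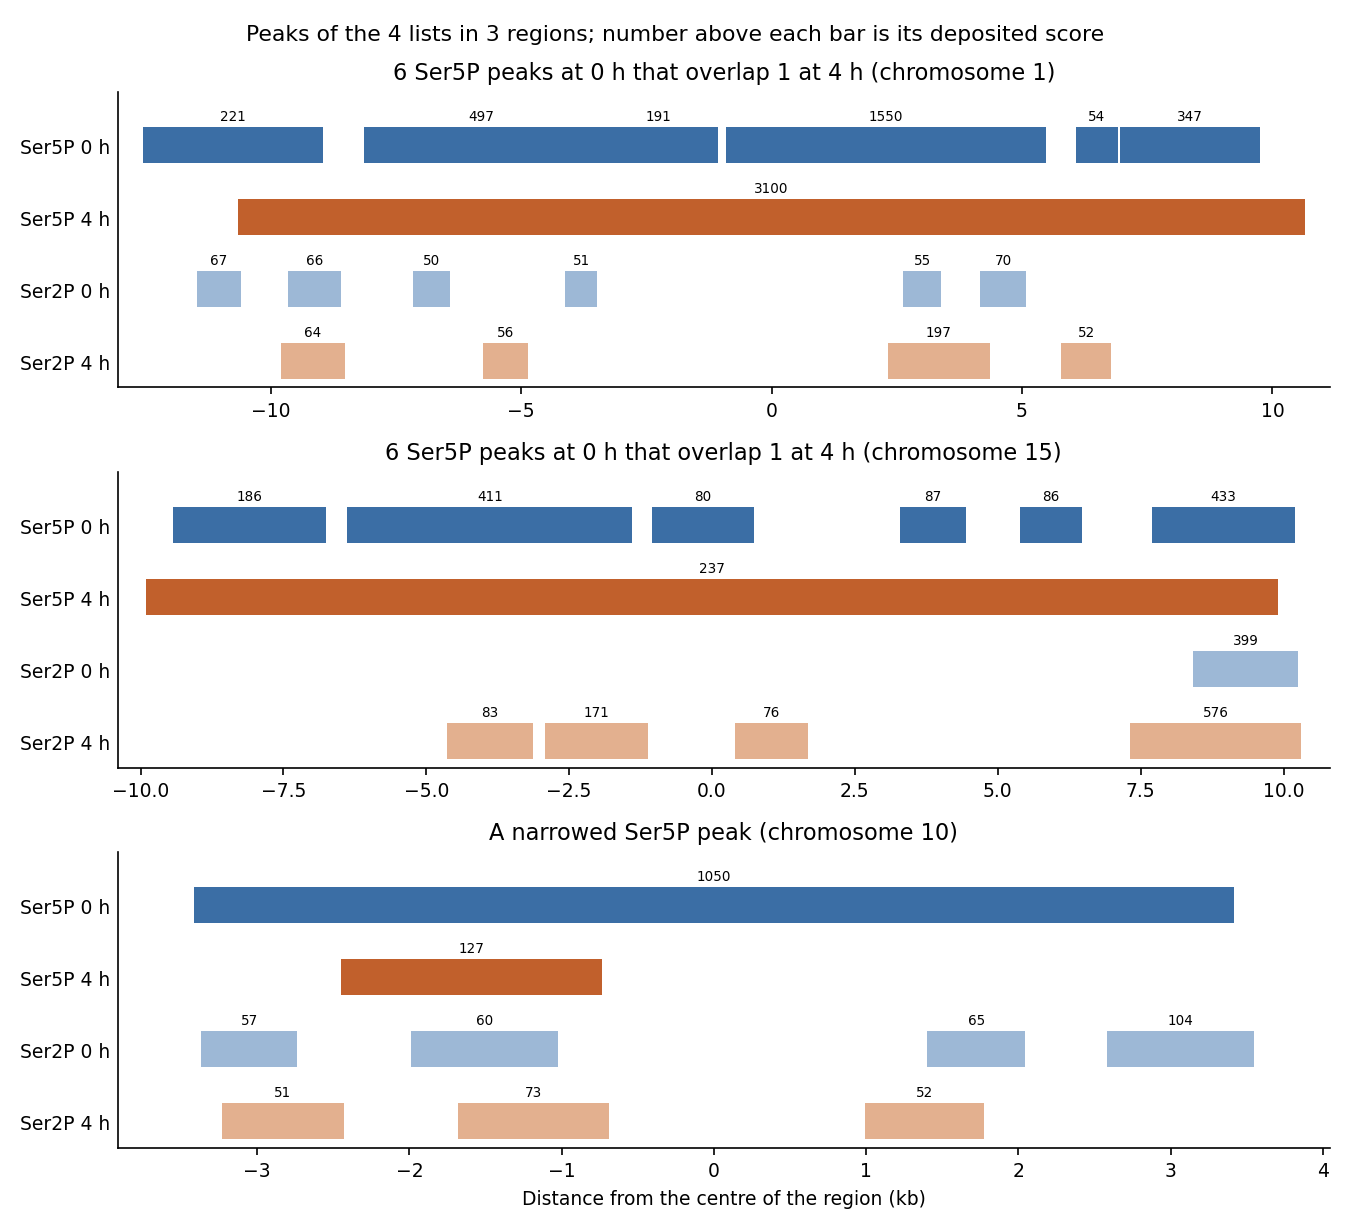
Peaks of the 4 lists drawn to scale in 3 regions (x axis, distance from the centre of the region in kb), with the deposited score above each bar. In the upper panels 6 Ser5P peaks of 0 h (dark blue; a gap of a few bp is not visible between the bars scored 497 and 191) overlap 1 peak of 4 h (orange), with an outer 0 h peak reaching past its end in each, and in the lowest panel a peak of 6830 bp is replaced by one of 1721 bp, while Ser2P peaks (pale) stay narrow in the uppermost and lowest panels.

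The 5 largest single ratios all belonged to 0 h peaks of 792 to 905 bp. The largest, 41.8, belonged to chr3:88362481-88363280, 800 bp wide with a score of 50.6 at 0 h, which fell under a 4 h peak of 33456 bp together with the neighbouring 31615 bp peak. A merge with more new ground was chr10:117132535-117149927, where 4 peaks of 5211 bp in sum (scores 59.81 to 473.46) were met by 1 peak of 17393 bp with a score of 3167.22. There the Ser2P peaks summed to 1640 bp at 0 h and 6845 bp at 4 h. Other named merges showed a smaller gain or a loss. Within the merge on chromosome 1 above, Ser2P covered 4148 bp at 0 h and 5214 bp at 4 h. At chr17:35638527-35654448 it went from 6119 bp to 5342 bp. At chr17:46935394-46955407, where 4 peaks of 0 h met 2 of 4 h, it went from 663 bp to 0 bp. At the other end of the ratios, chr4:140267081-140271357 went from 4277 bp and a score of 273.02 to 686 bp and 75.53. The peak chr10:62335354-62342183 went from 6830 bp and a score of 1050.43 to 1721 bp and 127.46, with Ser2P over 3080 bp of it at 0 h and 2577 bp at 4 h. At chr2:34667041-34671662, 4622 bp became 944 bp, and the 2 Ser2P peaks of 0 h there had no 4 h Ser2P peak in their place. The site chr7:148655641-148659525 also narrowed, from 3885 bp to 1022 bp, while Ser2P over it went from 2 peaks of 2667 bp in sum to 1 of 3131 bp. Narrow 4 h Ser5P peaks thus stood beside less Ser2P at some named sites and more at others.

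The 5 sites with the highest 0 h scores had width ratios of 0.71 to 1.21, and all had a 4 h score of 3100. The highest score, 3233.06, was that of chr8:91560095-91571984, 11890 bp at 0 h and a span of 10514 bp in 2 peaks at 4 h. The narrow peak chr11:101487768-101489924, with a score of 3206.87, went from 2157 bp to 2611 bp and had no Ser2P peak at either time. The peak chr1:39423893-39434578 went from 10686 bp to 7585 bp and lay mostly under Ser2P, with Ser2P scores of 3100 at both times. These sites differ in Ser2P, from none to most of their length. The widest kept peak was chr2:162876655-162914550, at 37896 bp, whose 3 peaks at 4 h spanned 39355 bp. Ser2P covered 24370 bp of it at 0 h and 20737 bp at 4 h, the widest Ser2P overlap of any kept peak outside chromosome 18.

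Ser2P, which the rule did not use, lay over a minority of the kept sites. A Ser2P peak of 0 h overlapped 1578 of 11218 (14.1%, interval 13.4 to 14.7%), beside 15.3% of all 0 h Ser5P peaks and 19.2% of those not kept (691 of 3591). At 4 h the counts were 1870 of 11218 kept peaks (16.7%, interval 16.0 to 17.4%), beside 16.7% of all and 16.9% of those not kept. Between the times the count over kept peaks went from 1578 to 1870, and that over peaks not kept from 691 to 607. The 4 h Ser2P list was the longer one, with 12.4 Mb covered against 8.80 Mb, and the part of its length in this was not tested.

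The lower Ser2P share of kept peaks at 0 h was also seen among peaks of like score, with a wider gap in each of the 10 score groups than in the whole list. In the seventh score group 10.1% of 1350 kept peaks and 46.6% of 131 others had a 0 h Ser2P peak, and in the lowest group the shares were 8.84% and 14.4%. The share was lower for kept peaks in 10 of 10 score groups at 0 h and in 9 of 10 at 4 h, the exception being the lowest group with 15.5% against 14.3%. The highest group held only 2 peaks that were not kept. Width gave the same order up to 5000 bp, with 12.5% of 2814 kept peaks and 42.4% of 311 others having Ser2P at 0 h among those of 1500 to 2500 bp. At 5000 to 10000 bp the counts were 291 of 415 kept peaks and 4 of 6 others, and no wider peak was among the others.

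Within the kept peaks, Ser2P went with breadth. It overlapped 6.15% of those narrower than 1000 bp at 0 h, 12.5% at 1500 to 2500 bp, 70.1% at 5000 to 10000 bp and 86.3% at 10000 bp or wider, where a wider peak also has more room for an overlap. This rise was not particular to kept peaks. Among peaks not kept the share was 13.6% under 1000 bp, 42.4% at 1500 to 2500 bp and 62.1% at 2500 to 5000 bp. Kept peaks with Ser2P at 0 h had a median Ser5P width of 2460.5 bp and a score of 302. Ser2P covered a median of 61.4% of such a peak at 0 h, and 4 h Ser2P a median of 70.2% of those it overlapped. The Ser2P peaks also reached further past the 0 h Ser5P peak at 4 h. At 0 h 49.5% of 1990 overlapping pairs had the Ser2P peak inside the Ser5P peak and 6.38% had it spanning the whole Ser5P peak, and at 4 h these were 35.1% and 15.6% of 2232 pairs. The whole 4 h Ser2P list also had wider peaks (median 1179 bp against 1023 bp at 0 h), and the part of that was not tested. Ser2P of 4 h was not set against the edges of 4 h Ser5P peaks, which were mostly further apart too.

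Ser2P itself was mostly held where Ser5P was held. Of the kept peaks with a 0 h Ser2P peak, 81.5% also had one at 4 h (1286 of 1578, interval 79.5 to 83.4%), beside 54.3% of the peaks not kept (375 of 691, interval 50.5 to 58.0%). The median 0 h Ser5P width was 2460.5 bp for the former and 1090 bp for the latter. A wider peak has more room for an overlap, and the part of width in these shares was not tested. Where there had been no 0 h Ser2P peak, 584 of 9640 kept peaks (6.06%) and 232 of 2900 others had one at 4 h, a smaller share of the kept. Read from the Ser2P list, 77.8% of the 1805 peaks of 0 h over kept Ser5P peaks alone overlapped a 4 h Ser2P peak, 56.0% of 623 over peaks not kept alone, 51 of 64 over both kinds, and 45.8% of 3423 outside any 0 h Ser5P peak. The median 0 h Ser2P scores were 137 over kept peaks alone, 107 over peaks not kept alone, 294 over both and 69.9 outside, and the part of that in the shares was not tested. Kept Ser2P peaks, 3372 in all, had a median width ratio of 1.43, and 46.8% of them were wider by 1.5-fold or more, beside the 1.19 and 27.6% of the kept Ser5P peaks. Of the kept Ser2P peaks 32.1% were joined, beside 16.2% of the kept Ser5P peaks, and the part of joining in this contrast was not tested.

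The 584 kept peaks with Ser2P at 4 h only stood apart in width from the other kept peaks, without a test. Their median Ser5P width was 1540 bp at 0 h and 3303 bp at 4 h, a median ratio of 1.62, and 47.6% of them were joined under a shared 4 h peak. Their median score was 125 at 0 h and 387 at 4 h. The 9056 with no Ser2P at either time, 80.7% of kept peaks, had a ratio of 1.19 and 11.8% were joined. The 1286 with Ser2P at both times were the broadest at 0 h (2791 bp) and had a ratio of 1.07, with 31.5% joined. The 292 with Ser2P at 0 h only had a ratio of 1.08.

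A joined peak is measured by the whole 4 h peak, and the part of joining in that contrast was not tested. Among one-to-one sites alone the median ratios were 1.19 for Ser2P at 4 h only (n = 279), 1.15 for neither (n = 7865), 1.02 for 0 h only (n = 212) and 0.969 for both times (n = 772). Sites with Ser2P at both times thus showed no widening on the median once joined and split peaks were set aside, and sites without Ser2P at 0 h did. The groups also differed in 0 h width, with medians over all their kept peaks of 2791 bp for both times and 1281 bp for neither. Sorted by 0 h width alone, one-to-one ratios fell from 1.33 under 1000 bp to 0.966 at 5000 to 10000 bp. The part of 0 h width in the contrast between Ser2P groups was not tested.

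**Figure D4:**
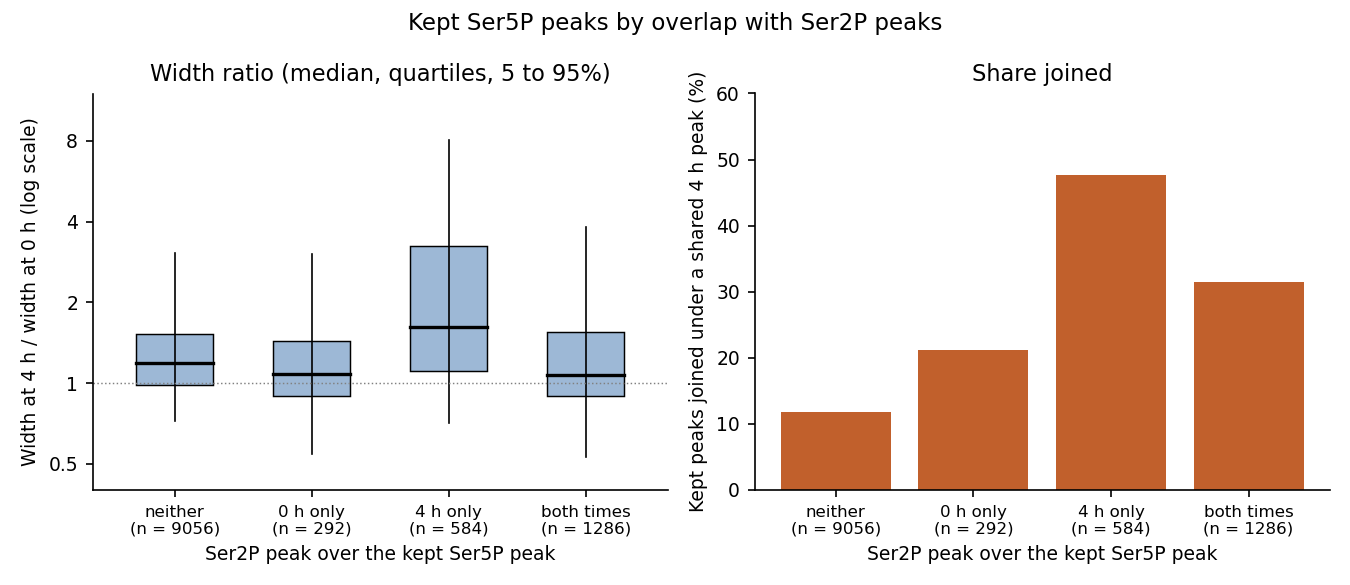
Left, ratio of 4 h to 0 h Ser5P width (log scale; line at the median, box from lower to upper quartile, whisker from the 5th to the 95th percentile) for kept peaks grouped by Ser2P overlap. Right, percent of each group joined under a shared 4 h peak, highest at 47.6% for the 584 peaks with Ser2P at 4 h only and lowest at 11.8% for the 9056 with none.

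Seen from the 4 h list, the 10812 Ser5P peaks over kept sites differed from the 5404 that overlapped no 0 h peak. Their median widths were 1573 bp and 1034.5 bp and their median scores 175 and 70.6. A 4 h Ser2P peak overlapped 17.2% of the former (interval 16.5 to 17.9%) and 10.7% of the latter (interval 9.87 to 11.5%), beside 15.0% of all 4 h Ser5P peaks. A 0 h Ser2P peak overlapped 14.7% and 4.15%, beside 11.2% of all. The part of width and score in these shares was not tested.

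Kept peaks were less crowded than the rest of the 0 h list. The nearest other 0 h Ser5P peak was a median of 10543 bp away for kept peaks and 5380 bp for those not kept. Another peak lay within 5000 bp of 39.3% of kept peaks and of 49.0% of the others.

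The kept peaks were spread over all chromosomes. Over the 19 autosomes the share kept ran from 72.9% on chromosome 7 (interval 70.2 to 75.6%) to 79.6% on chromosome 12 (interval 75.7 to 83.1%). These intervals do not overlap, but they belong to the lowest and highest of 19 shares, and no difference was tested. The median over autosomes was 75.6%, and the X chromosome had 73.3% (365 of 498). All 4 peaks on the Y chromosome were kept, and 32 of 36 on contigs with no fixed place. The median width ratio was above 1 on 19 of 19 autosomes, from 1.14 on chromosome 14 to 1.25 on chromosome 1, and was 1.14 on the X. Joined peaks made up 10.8% of kept peaks on chromosome 13 and 22.2% on chromosome 17.

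Ser2P varied more between chromosomes than the share kept did. The share of kept peaks with a 0 h Ser2P peak ran from 8.61% to 19.9% over the autosomes, the highest being chromosome 7, and at 4 h it ran from 9.40% on chromosome 14 to 22.6% on chromosome 11. It was higher at 4 h than at 0 h on 17 of 19 autosomes. On chromosome 14 it was 9.72% at 0 h and 9.40% at 4 h, and on chromosome 16 it was 9.95% at both. The direction of the pooled counts was therefore that of most chromosomes, all of which were read in the same libraries. Shares over all 0 h Ser5P peaks of each chromosome are not given here. A trait of the kept peaks and one of the whole chromosome therefore cannot be told apart.

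**Figure D5:**
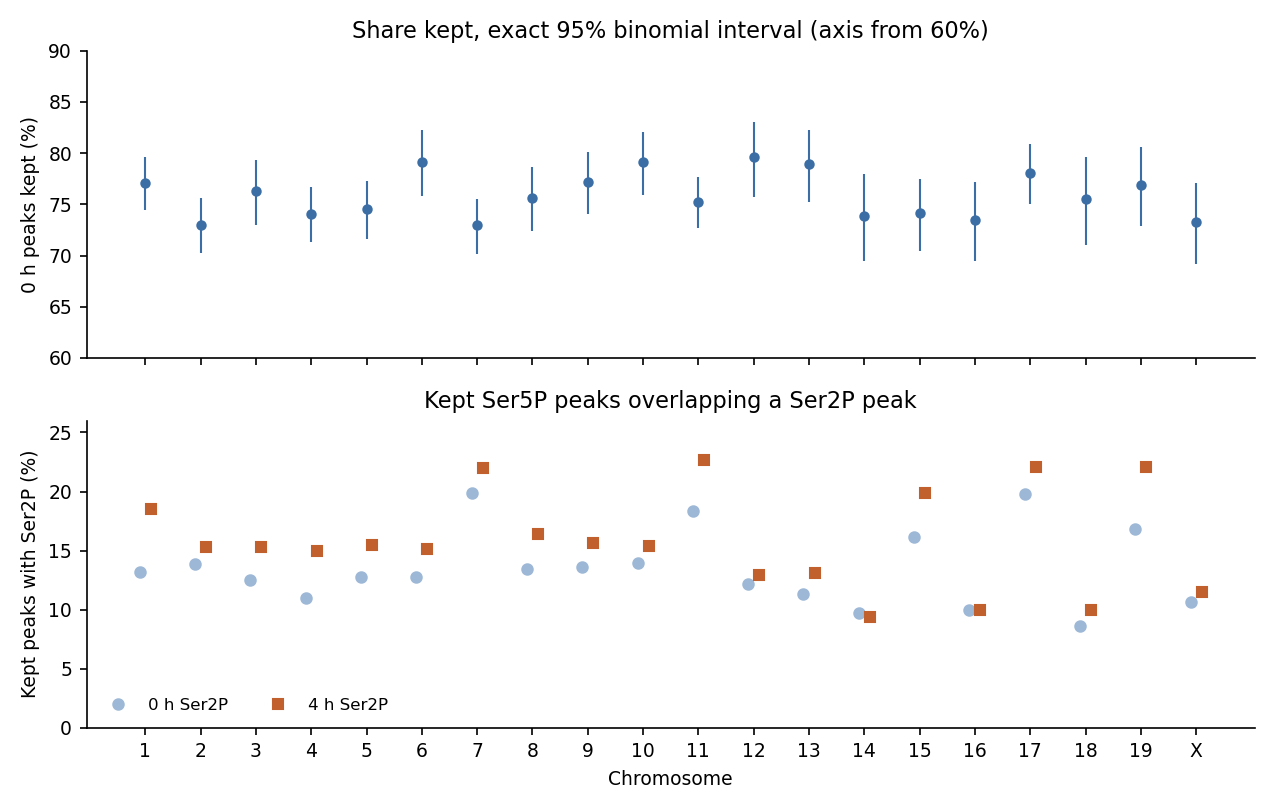
Upper panel, percent of 0 h Ser5P peaks kept on each autosome and the X chromosome (points) with exact 95% binomial intervals (bars; the axis starts at 60%), all points lying between 72.9% and 79.6%. Lower panel, percent of kept peaks that overlap a Ser2P peak at 0 h (circles) and at 4 h (squares), with squares above circles on 17 of 19 autosomes.

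No genome or annotation of build mm9 was used here, so no kept peak is assigned to a gene, a promoter or a strand, and no sequence is printed.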

How the data were processed

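Pol II ChIP-seq peaks at 0 h and 4 h of IAA were read from the 4 peak lists as deposited, 1 library each. Per the submitters' processing notes CASAVA, Bowtie2, TopHat2 2.0.11 and bedtools were used, with build mm9 for ChIP-seq. Peak names carry the word MACS per the files, while no source used here gives caller settings, input controls or read depth. The score of each peak is the authors' own. FPKM values of long noncoding RNAs were made by the authors and deposited as a table, and 3 of its columns served for the marker check, while 21 were not used.

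Overlaps, widths and distances were computed in Python 3.11.15 with pandas 2.3.3 and numpy 2.4.6, intervals with scipy 1.17.1, on 1-based coordinates and a minimum overlap of 1 bp, and checked on simulated peaks. The 4 h width of a kept peak is the span of all 4 h peaks over it. No test was made, since each list is 1 library. Single peaks were named by rule: the 5 with the highest 0 h score, the 5 widest, the 5 with the largest and the 5 with the smallest width ratio, the 3 peaks of 4 h that take in the most peaks of 0 h and the 3 with the widest 0 h Ser2P overlap, none on chromosome 18, and the text gives part of them. The regions, rules and lists were chosen with earlier results of these data known.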

Additional observations from a re-analysis of the deposited data

How the results depend on the processing

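Alternatives were run for the share kept, the median width ratio, the share wider, the number joined, both Ser2P shares of kept peaks and the score correlation. The median width ratio stayed above 1 and the share wider above 50% in each. The other results have no direction that could turn. Each result moved under some alternatives, and the number joined ran from 0 to 3364. The order of width ratios by width class does turn with the width used for sorting: one-to-one sites under 1000 bp had a median of 1.33 by 0 h width and 0.874 by 4 h width. Differences between kept and other peaks in Ser2P were not run under these alternatives. With an overlap of at least 50% of the 0 h peak, 71.4% were kept, the median width ratio was 1.18, 70.6% were wider, 1156 were joined, and 12.8% and 15.2% overlapped Ser2P at 0 h and 4 h. With 50% of both peaks these were 61.0%, 1.11, 65.6%, 0 (peaks that do not overlap cannot each fill that share of 1 peak), 12.4% and 13.1%. Counting 0 h peaks within 1000 bp of a 4 h peak as kept gave 79.6%, 1.26, 75.1% and 3364. In that setting every 4 h peak within 1000 bp of a site also counted towards its span and towards joining. The higher ratio, share wider and number joined are thus partly built in. Peaks at or above their list's median score gave 80.8%, 1.17, 72.7%, 645, 18.4% and 20.3%. Joining peaks within 1000 bp first in each list gave 77.7%, 1.15, 67.9% and 660, with 4 h Ser2P over 15.6%. Taking the 4 h peak with the largest overlap gave a ratio of 1.17, and asking for widening by at least 10% left 59.3% wider. One-to-one peaks alone gave 66.9% wider, a ratio of 1.12 and a score correlation of 0.75. Ser2P over at least 50% of the Ser5P peak was found at 8.86% of kept peaks at 0 h and 11.6% at 4 h, Ser2P within 1000 bp at 16.3% and 20.4%, and Ser2P at or above its median score at 10.8% and 13.3%. Chosen after seeing the data, a 4 h Ser5P list reduced by score to the length of the 0 h list left 73.4% kept and 72.4% of these wider, and a 4 h Ser2P list reduced likewise left 15.7% with Ser2P at 4 h. Where no construction is named, the cause was not tested. No paired analysis was possible because each list is 1 library, and for the same reason no library could be left out.

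Depth is unknown, so weaker or shallower sequencing of a list and fewer occupied sites cannot be told apart. Each list is 1 library, no list of IAA-treated cells without the degron was used here, and the widths rest on the caller's settings.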
